A study of Mus musculus with 24 samples.

Results

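Neat1 and Malat1 are neighbouring genes on mouse chromosome 19 whose products are long noncoding RNAs kept in the nucleus. The peak regions of 2 subunits of the negative elongation factor (NELF) and of SPT5 were read at both genes. They were selected by position, as every region that overlapped a window of 36 kb around Neat1 or of 20 kb around Malat1. This gave 53 of the 1811308 regions in 6 lists, 33 at Neat1 and 20 at Malat1. The genes were picked with the regions of these lists already known, so the values are a description and no test is given.

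The series used chromatin immunoprecipitation followed by sequencing (ChIP-seq) on E14 mouse embryonic stem cells. It has 24 samples, and the 6 used here are labelled as controls, grown in serum and LIF with the genotype given as "Nelfb deg". The treatment protocol names DMSO or dTAG-13 in the medium. In this genotype NELFB can be degraded with dTAG-13, and it was precipitated through an HA tag (NELFB:HA). There were 2 libraries each for NELFB:HA, for NELFE with an antibody to the protein itself, and for SPT5 with an antibody to DSIF. By the labels, all 6 came from 1 cell line and have the same degron genotype. The file headers, however, name the SPT5 libraries and their input "wt", a word absent from the NELF headers, and what it stands for was not settled here. The labels do not say whether replicates came from separate cultures, so the spread between them may be technical. The other 18 samples, treated for 30 min with 500 nM dTAG-13, from the naive and EpiLC states, or inputs, were not analysed here.

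NELF is a multi-subunit complex that holds RNA polymerase II a short way into the gene. DSIF, made of SPT4 and SPT5, binds the polymerase as well, takes part in the pause, and stays on it as an elongation factor after NELF has left. Malat1 RNA gathers in nuclear speckles, bodies rich in splicing factors. Its 3′ end is made by RNase P rather than by polyadenylation, and the piece cut off there becomes a small cytoplasmic RNA, mascRNA. Neat1 RNA is the scaffold of paraspeckles, and a short and a long isoform begin at the same start. The short one is polyadenylated, and the long one alone builds the body.

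The sequence around the Malat1 start is shown because the NELF regions described next lie over it. It runs from 250 bases before the start to 50 bases into the transcript, on the minus strand at chr19:5802623-5802922 of GRCm38.p6 (RefSeq), with the transcribed bases in capitals. The same table has no entry for Neat1.
Malat1 promoter: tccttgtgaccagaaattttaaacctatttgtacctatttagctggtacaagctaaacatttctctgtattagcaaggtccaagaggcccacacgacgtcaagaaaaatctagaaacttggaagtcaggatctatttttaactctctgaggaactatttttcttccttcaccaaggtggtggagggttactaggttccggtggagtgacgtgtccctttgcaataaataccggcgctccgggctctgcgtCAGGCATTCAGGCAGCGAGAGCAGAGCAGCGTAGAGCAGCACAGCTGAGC

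These 300 bases hold 10 CG dinucleotides, against a median of 7 over all 32851 promoters of the table, and 43.5% of promoters hold as many or more. On either strand they hold no match to TATAAA, which is found in 13.6% of promoters. The same is true of the CCAAT box, found in 37.4%, and of the GC box GGGCGG, found in 35.7%. Neither the E-box CACGTG, found in 7.15%, nor the heat shock element core GAANNTTC, found in 7.86%, has a match there. A pair of further motifs was searched after the sequence was read. The letters ATAAATA occur once, in the direction of transcription, beginning 28 bases before the start, and are found in 5.598% of promoters. The letters TGACGT (the core of a cAMP response element) occur 2 times, once on each strand, at 45 and 155 bases before the start, and are found in 7.51% of promoters.

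Between 27324697 and 62312558 tags remained after filtering in the 6 libraries, and the lists held between 137102 and 462153 regions. A region is called strong here when its deposited q-value was 0.01 or less, which held for 1.51% to 6.08% of a list. The NELFB:HA and NELFE libraries had tags of 50 bp extended to 227 bp and an input each. The SPT5 libraries had tags of 100 and 101 bp extended to 206 bp and shared an input, so wherever SPT5 is set against NELF, antibody, tag length, input and whatever the "wt" in the SPT5 headers stands for cannot be told apart. As a check on the cell type, strong regions covered the starts of Pou5f1, Sox2, Klf4 and Zfp42 in both replicates of all 3 antibodies, while the mesoderm gene T and the neuronal gene Neurod1 had no replicated strong region. Nanog and Esrrb had no replicated strong region over the outermost start in the table. Gata6 and Sox17, also listed as markers of other cells, had no known strand and were not read. Counting regions of any strength, the start of Neurod1 was covered in 5 libraries and that of T in 1.

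Every library had a strong region over the annotated start of Malat1 and over that of Neat1. Over all 27026 genes with a known start and strand, 18.7% had one in all 6 libraries. The remaining regions in the windows were mostly weak. At Neat1 the 6 regions over the start were the only strong ones, and the other 27 had folds over input of 1.45 to 2.63. At Malat1 10 of 20 regions were strong, the 6 over the start and 4 NELF regions further upstream.

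**Figure D1:**
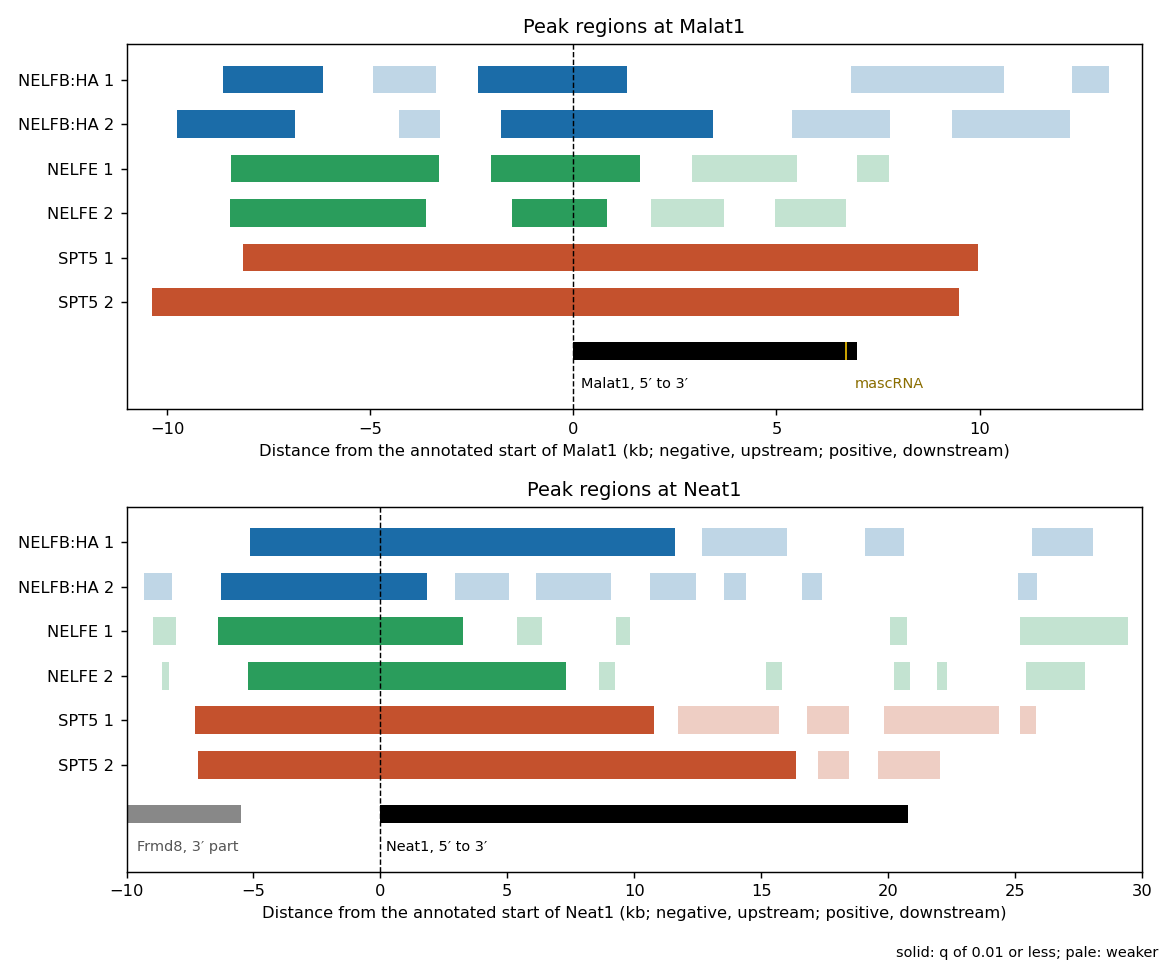
Peak regions of each library (rows) by distance from the annotated start in kb, for Malat1 (top) and Neat1 (bottom), with solid bars for regions with a q-value of 0.01 or less and pale bars for weaker ones. At Malat1 the SPT5 bars run through the whole gene while the solid NELF bars over the start end inside it, and at Neat1 all 6 solid bars are long.

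Malat1 (NCBI gene 72289) occupies chr19:5795690-5802672 on mm10, the build in the submitters' notes, is 6983 bp long and is transcribed toward lower coordinates. NELF sat over its start in a very high region, shorter than that of SPT5 but longer than most NELF regions. The NELFB:HA regions were chr19:5801365-5805024 in replicate 1 and chr19:5799231-5804451 in replicate 2, of 3660 and 5221 bp. The NELFE regions were chr19:5801037-5804694 and chr19:5801857-5804182, of 3658 and 2326 bp. The stretch common to all 4 NELF libraries was the second NELFE region itself, which ran from 1510 bp upstream to 815 bp downstream of the start.

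By the authors' fold enrichment over input, the Malat1 start region stood at 8.80 and 7.93 in the NELFB:HA libraries and at 9.01 and 14.3 in the NELFE libraries. Its pileup, the ChIP coverage of the region, was 92.0 and 54.9 for NELFB:HA and 78.9 and 118 for NELFE. By pileup it ranked 206 of 343503 and 547 of 447756 regions for NELFB:HA. In the NELFE lists it ranked 572 of 203679 and 40 of 217115. It was therefore within the highest 0.281% of every NELF list, although pileup itself cannot be compared between libraries of different depth. In a bulk population a higher region cannot separate more cells bound from more factor per cell.

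The NELF regions over the start ended inside Malat1, short of its 3′ end. The downstream edge of the start region lay 1307 and 3441 bp into the gene for NELFB:HA (mean 2374 ± 1509, SD, n = 2) and 1635 and 815 bp into it for NELFE (1225 ± 580, SD, n = 2). This was 18.7% and 49.3% of the gene for NELFB:HA and 23.4% and 11.7% for NELFE. The 2 subunits overlapped in reach, and their difference of 1149 bp was about its pooled SD of 1143 bp. Further into the gene NELF had only weak regions, with folds of 1.60 to 2.02. Counting these, NELF regions covered between 20.9% and 72.3% of Malat1.

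SPT5 covered all of Malat1 in 1 region per library. The regions were chr19:5792709-5810799 in replicate 1 and chr19:5793182-5813036 in replicate 2, of 18091 and 19855 bp, with folds of 6.14 and 6.26 and pileups of 40.2 and 70.8. They ranked 210 of 462153 and 105 of 137102 by pileup, and 174 and 137 by length. Downstream they reached 9963 and 9490 bp from the start (9727 ± 334, SD, n = 2), which is 2981 and 2508 bp past the annotated 3′ end. The 2 SPT5 libraries thus lay well apart from the 4 NELF libraries, whose longest reach was 3441 bp.

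The mean reach of SPT5 in Malat1 exceeded that of NELFE by 8502 bp (pooled SD 473 bp) and that of NELFB:HA by 7353 bp (pooled SD 1093 bp). Upstream of the start the same order held. SPT5 reached back 8127 and 10364 bp, NELFB:HA 2352 and 1779 bp, and NELFE 2022 and 1510 bp. Upstream, SPT5 exceeded NELFE by 7480 bp (pooled SD 1147 bp) and NELFB:HA by 7180 bp (pooled SD 1155 bp).

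The 3′ end of Malat1 was marked by SPT5 and hardly by NELF. The mascRNA, the 58 bp small RNA annotated at chr19:5795924-5795981, lay wholly inside both strong SPT5 regions. The second NELFB:HA library covered it with a weak region (−log10 q of 0.525) and the second NELFE library covered 51.7% of it with a region of −log10 q of 0.00253. The first NELFB:HA and the first NELFE library had no region there.

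A separate NELF region stood upstream of Malat1 in all 4 NELF libraries. For NELFB:HA it was chr19:5808827-5811307 and chr19:5809522-5812426, with folds of 3.06 and 4.01. For NELFE it was chr19:5805982-5811111 and chr19:5806290-5811121, with folds of 2.93 and 3.82. The stretch common to these 4 regions was chr19:5809522-5811111, 6850 to 8439 bp upstream of the Malat1 start, and the RefSeq table lists no gene there. Its pileups of 32.7, 23.3, 24.7 and 29.6 placed it between the highest 1.03% and the highest 3.63% of its lists, far below the start region. It ranked 4848, 4597, 7399 and 5639 in lists with 10198, 8291, 11234 and 11770 strong regions, so it was not extreme among these. It was separated from the start region in all 4 NELF libraries, whereas the SPT5 regions ran without a break from the gene across 80.4% of it in replicate 1 and all of it in replicate 2.

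**Figure D2:**
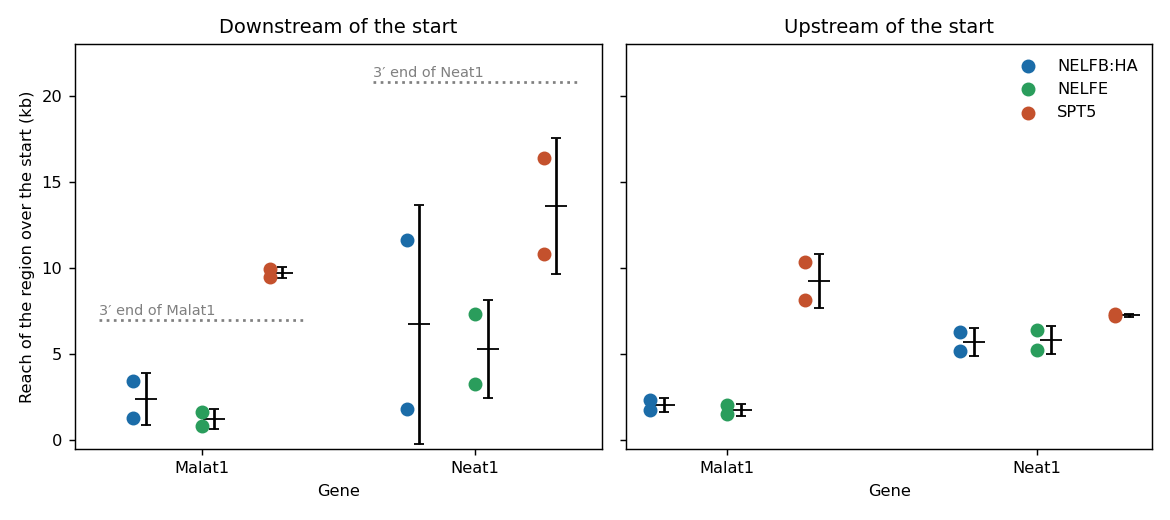
Distance in kb from the annotated start to the downstream (left) and upstream (right) edge of the region over it, with 1 point per library, the mean and SD of 2 libraries beside them and dotted lines at the 3′ ends of the genes. At Malat1 both SPT5 points lie above all NELF points on both sides, and at Neat1 the first NELFB:HA library lies above the first SPT5 library downstream.

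Neat1 (NCBI gene 66961) occupies chr19:5824708-5845480, is 20773 bp long and is transcribed in the same direction as Malat1, a strand taken from general knowledge since the table used gives none. Its 3′ end lies 22035 bp upstream of the Malat1 start. Here NELF itself was spread over a long stretch. The NELFB:HA regions over the start were chr19:5833862-5850630 and chr19:5843664-5851775, of 16769 and 8112 bp. The NELFE regions were chr19:5842214-5851871 and chr19:5838172-5850699, of 9658 and 12528 bp. The stretch common to all 4 ran for 6967 bp, from 5150 bp upstream to 1816 bp downstream of the start.

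The Neat1 NELF regions were among the longest of their lists. By length they ranked 2 of 343503 and 404 of 447756 for NELFB:HA, and 19 of 203679 and 6 of 217115 for NELFE. Their height was moderate, with folds of 3.94 and 4.37 for NELFB:HA and 5.64 and 5.39 for NELFE. By pileup (32.5, 30.1, 44.9 and 35.2) they ranked 4871, 2881, 3247 and 4473, within the highest 0.643% to 2.06% of the lists. Most regions of a list are weak, and the strong ones numbered 10198, 8291, 11234 and 11770, so these ranks are not extreme among strong regions.

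Into Neat1 the NELF reach varied widely between replicates. It was 11618 and 1816 bp for NELFB:HA (6717 ± 6931, SD, n = 2) and 3266 and 7308 bp for NELFE (5287 ± 2858, SD, n = 2). This was 55.9% and 8.75% of the gene for NELFB:HA and 15.7% and 35.2% for NELFE. In the second NELFB:HA library the next region began 1105 bp further on and was weak. The difference between the subunits, 1430 bp, was far inside its pooled SD of 5301 bp.

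SPT5 had the regions chr19:5834698-5852787 and chr19:5829107-5852662 over the Neat1 start, of 18090 and 23556 bp, with folds of 5.78 and 5.20 and pileups of 38.8 and 60.6. Both ranked 253 by pileup, of 462153 and 137102 regions. They reached 10782 and 16373 bp into the gene (13578 ± 3953, SD, n = 2), or 51.9% and 78.8% of it. Unlike at Malat1, neither came to the annotated 3′ end, which lay 9990 and 4399 bp further on. Weak SPT5 regions followed in both libraries inside the gene with folds of 1.64 to 1.81, and with them SPT5 covered 83.7% and 90.2% of Neat1.

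The reach of SPT5 into Neat1 exceeded that of NELFE by 8291 bp on average (pooled SD 3450 bp), and by 7516 and 9065 bp between libraries of the same number. Against NELFB:HA the difference was 6861 bp (pooled SD 5642 bp), and it depended on which libraries were set together. Between libraries of the same number it was −836 bp in replicate 1 and 14557 bp in replicate 2, but whether the numbers pair the libraries is not known. The NELFB:HA libraries themselves lay far apart, at 11618 and 1816 bp. With regions taken singly, the NELF and SPT5 libraries therefore overlapped in reach at Neat1 and not at Malat1. Both SPT5 libraries reached beyond all 4 NELF libraries at 1 of the 2 genes, and at 24.7% of those 5050 genes that had a strong region over the start in all 6 libraries. They fell short of all 4 at neither, and at 6.28% of the 5050 genes. The overlap at Neat1 was lost when regions were joined over gaps of 1 kb or less. SPT5 then reached 15702 and 18447 bp into Neat1 while the NELF values stayed the same, so that SPT5 lay beyond NELF at both genes, and at 27.6% of the 5050 genes. This rests on the choice of 1 kb. The gaps joined were 932 and 864 bp for SPT5, while those of NELFB:HA, 1059 and 1105 bp, just missed it. The SPT5 regions joined on were weak.

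Upstream of the Neat1 start the 6 libraries lay close together, with SPT5 somewhat further out. SPT5 regions reached back 7307 and 7182 bp, those of NELFB:HA 5150 and 6295 bp and those of NELFE 6391 and 5219 bp. The means (± SD, n = 2) were 5723 ± 810 bp with the HA antibody, 5805 ± 829 bp with the NELFE antibody and 7245 ± 88.4 bp with the SPT5 antibody. Both SPT5 libraries lay beyond all 4 NELF libraries here and at Malat1, which held for 15.2% of the 5050 genes with a strong region over the start in all 6 libraries. SPT5 exceeded NELFE by 1440 bp (pooled SD 589 bp) and NELFB:HA by 1522 bp (pooled SD 576 bp). This stretch spans the 5493 bp between Neat1 and the 3′ end of Frmd8, a gene transcribed in the same direction. The regions of the second NELFB:HA, the first NELFE and both SPT5 libraries ran 802, 898, 1814 and 1689 bp into Frmd8, and the remaining 2 stopped 343 and 274 bp short of it.

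Set side by side within each library, the 2 genes differed more in NELF than in SPT5. The Malat1 region had a pileup 2.83 and 1.82 times that of Neat1 in the NELFB:HA libraries and 1.76 and 3.34 times in the NELFE libraries. In the SPT5 libraries the ratio was 1.04 and 1.17. The Neat1 region was 4.58 and 1.55 times as long as that of Malat1 for NELFB:HA, and 2.64 and 5.39 times for NELFE. For SPT5 the regions differed by 1 bp in replicate 1, and that of Neat1 was 1.19 times as long in replicate 2. By region, NELF was thus higher and shorter at Malat1 than at Neat1 in 4 of 4 libraries. Pileup is 1 value for a whole region, so it may depend on region length, and the height at the start itself was not read.

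**Figure D3:**
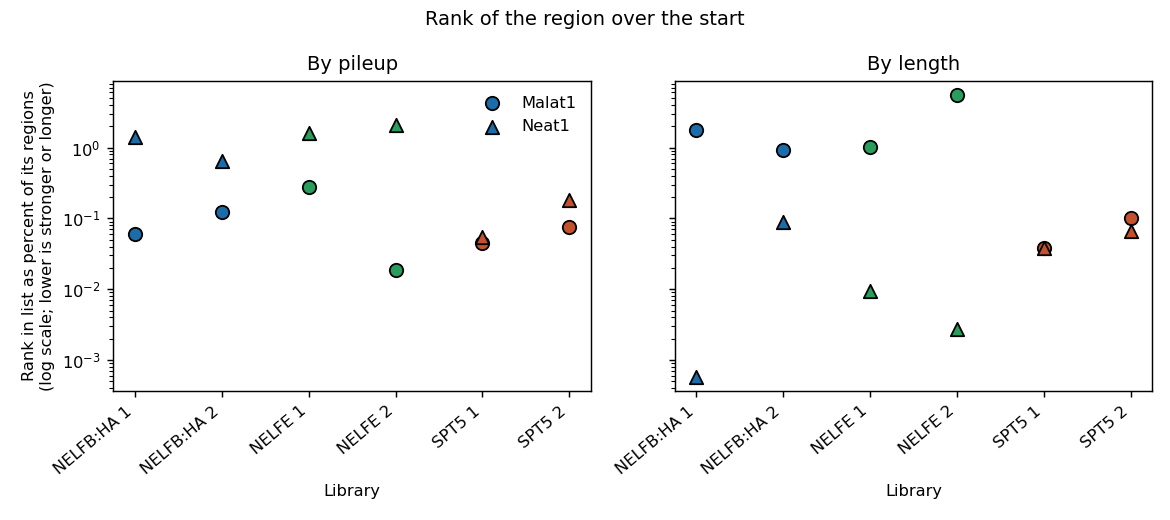
Rank of the region over the start as a percent of the regions in its list, by pileup (left) and by length (right), on a log scale, with circles for Malat1, triangles for Neat1 and 1 colour per antibody. In the 4 NELF libraries Malat1 ranks higher by pileup and Neat1 by length, and in SPT5 the genes lie close together.

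The 5050 genes with a strong region over the start in all 6 libraries give the scale for these distances. In replicates 1 and 2 their median downstream reach was 1122 and 1236 bp with NELFB:HA. With NELFE it was 937 and 1065 bp, and with SPT5 1660 and 1357 bp. SPT5 reached as far as in Malat1 at 4.93% and 5.68% of them, and as far as in Neat1 at 4.3% and 1.88%. NELFE reached as far as in Neat1 at 3.37% and 0.297%. In the first NELFB:HA library Neat1 had the longest downstream reach of all 5050 genes (1 gene, 0.0198%), and in the second 31.8% of genes reached as far. For Malat1 the NELF reach was nearer that of other genes, except in the second NELFB:HA library, with 42.3% and 8.38% of genes at or beyond it for NELFB:HA and 22.8% and 63.3% for NELFE. The difference between SPT5 and NELFE was as large as in Malat1 at 4.67% of genes and as large as in Neat1 at 4.81%. Against NELFB:HA these shares were 5.29% and 5.68%, and for NELFB:HA minus NELFE 13.1% and 8.63%.

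Upstream of the start Neat1 stood further from the other genes in NELF than Malat1 did. NELFB:HA reached back as far as at Neat1 in 1.15% and 0.851% of the 5050 genes, and NELFE in 0.198% and 0.653%. The corresponding shares for Malat1 were 12.6% and 28.1% with NELFB:HA and 11% and 25% with NELFE. For SPT5 both genes were far out, with 3.5% and 3.7% of genes at or beyond Neat1 and 3.03% and 1.82% at or beyond Malat1.

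Taking for each gene the shortest of its 4 NELF regions, Neat1 had 8112 bp against a median of 1370 bp, and 6 of 5050 genes (0.119%), itself included, had as much. The other 5 lie in only 2 places. H1f2, H2bc3 and H3c3, histone genes on chromosome 13, shared regions of at least 10711 bp, and Tdgf1, a co-receptor for Nodal, and Lrrc2 on chromosome 9 shared regions of at least 10275 bp. These genes were named after their values were seen. The shortest upstream reach of NELF at Neat1, 5150 bp, was met by 7 genes (0.139%), itself included. For SPT5 the shorter of the 2 regions was 18091 bp at Malat1 and 18090 bp at Neat1, met by 1.58% and 1.6% of genes. The shortest SPT5 reach was met downstream by 3.68% of genes for Malat1 and 2.91% for Neat1, and upstream by 1.8% and 2.22%. The same measure for NELF at Malat1 was met by 13.6% of genes in length, 30.7% downstream and 4.65% upstream, and at Neat1 by 3.9% downstream.

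**Figure D4:**
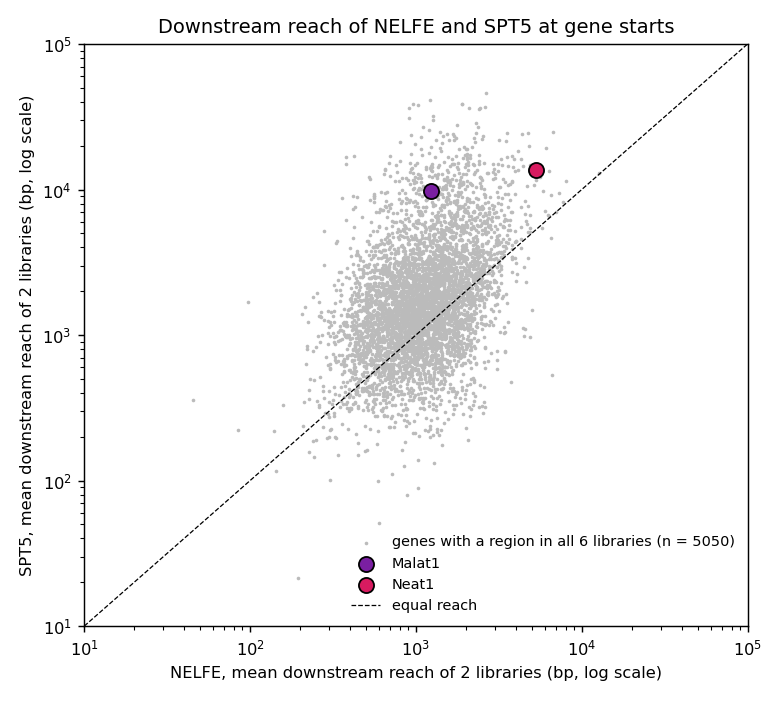
Mean downstream reach of SPT5 against that of NELFE in bp, both on log scales, for the 5050 genes with a strong region over the start in all 6 libraries (grey), with Malat1 and Neat1 in colour and a dashed line of equal reach. Malat1 lies near the middle of the NELFE axis and high on the SPT5 axis (1225 and 9727 bp), and Neat1 is high on both (5287 and 13578 bp).

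Gene length bears on how much of a gene a region covers, so each gene was also set beside others of its length. Of 696 genes of 5000 to 10000 bp, 12.2% had SPT5 regions past the 3′ end in both libraries, as Malat1 did. Relative to gene length, SPT5 reached as far as in Malat1 at 12.4% and 13.1% of them. NELFB:HA did so at 39.1% and 8.76% and NELFE at 22.7% and 60.5%. Of 1191 genes of 15000 to 30000 bp, 1.01% had SPT5 past the 3′ end in both libraries, and Neat1 was not one of them. SPT5 covered as large a share from the start as in Neat1 at 3.27% and 2.6% of these. NELFE did so at 3.36% and 0.168%, and NELFB:HA at 0.084% (Neat1 alone) and 30.4%. All these shares include Malat1 or Neat1 itself.

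Genes with the most similar reach were ranked by the distance of log2(reach + 100 bp) over the 6 libraries, among 4214 genes of at least 5000 bp. Nearest to Malat1 (distance 0.770, against a median of 4.58 over all genes compared) was Eef2, translation elongation factor 2. Its NELF regions reached 1370, 2770, 1160 and 1144 bp and its SPT5 regions 8466 and 8352 bp. Cobl, Ppp4r3a, Gng5 and Cks2 followed at distances of 0.826 to 0.932. Neat1 had fewer close neighbours. The nearest was Bax, which promotes apoptosis, at a distance of 0.995 against a median of 6.71. Bax had NELFB:HA reaches of 9835 and 1727 bp, NELFE reaches of 1941 and 10708 bp and SPT5 reaches of 12864 and 14087 bp, and its gene is 5209 bp long, so regions there passed its end. Arid1a, Brd2, Ulk1 and Tgif1 followed at 1.78 to 2.05. Likeness over 6 libraries is a description and says nothing of shared control.

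Genes for the protein partners of the 2 RNAs were read at their own starts, where lists of named genes were counted without a test. Of 18 paraspeckle protein genes with a known start, 15 had a replicated strong NELFB:HA region over it, 15 a NELFE region and 16 an SPT5 region. Over all 27026 genes the shares were 23.8%, 27.9% and 20.6%. The 13 with all 3 had a median SPT5 reach of 3472 bp, with 1652 bp in NELFB:HA and 1416 bp in NELFE, against 1592, 1303 and 1092 bp over all 5050 genes. Over all members with an SPT5 region, the highest mean SPT5 reach was at Rbm14 (20610 and 57331 bp), which was below Sfpq in replicate 1 and whose protein is needed for paraspeckles to form. By the mean, Sfpq, a core paraspeckle protein that binds Neat1, followed with 25479 and 26682 bp, and then Ewsr1 with 14197 and 35036 bp. At Sfpq NELFE reached 3104 and 3315 bp, and only the first NELFB:HA library had a region over the annotated start. Regions of this length can cover neighbouring genes as well. Both SPT5 libraries reached beyond all 4 NELF libraries at 5 of the 13 genes, against 24.7% of the 5050.

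Of 20 genes for nuclear speckle and splicing proteins, 18 had replicated strong regions of NELFB:HA, 19 of NELFE and 18 of SPT5. Their SPT5 reach was long, with a median of 12228 bp in the 18 genes that had all 3, while NELFB:HA had a median of 1899 bp and NELFE of 1379 bp. Both SPT5 libraries reached beyond all 4 NELF libraries at 14 of these 18 genes, against 24.7% of the 5050. Rbm39 (36320 and 36322 bp), Tra2b (19044 and 32086 bp) and Srsf5 (21444 and 17800 bp), all splicing regulators, had the highest mean SPT5 reach. The order is not the same in each library, and Srsf3 (20635 and 18412 bp) was above Tra2b in replicate 1 and above Srsf5 in replicate 2, a gene named after its values were seen. Rbm39, Tra2b and Srsf5 are 33000, 21454 and 5013 bp long. Their SPT5 regions passed the end of the gene in both libraries at Rbm39 and Srsf5, and in replicate 2 at Tra2b. Reach is counted from the start, so it can include stretches beyond the gene.

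Of 8 genes for factors that process or bind the 2 RNAs, 7 had replicated strong regions with each antibody, with a median SPT5 reach of 1137 bp and a median NELFB:HA reach of 1405 bp. Both SPT5 libraries reached beyond all 4 NELF libraries at 3 of these 7, against 24.7% of the 5050. Ythdc1, a nuclear reader of N6-methyladenosine, had the highest mean SPT5 reach at 14277 and 11245 bp, followed by Mettl16, which binds the Malat1 triple helix, at 2679 and 3447 bp, and Rpp38, an RNase P subunit, at 2089 and 1053 bp. Mettl3 had no region over its outermost annotated start in any library, and whether that start is the one used in these cells is not known here.

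**Figure D5:**
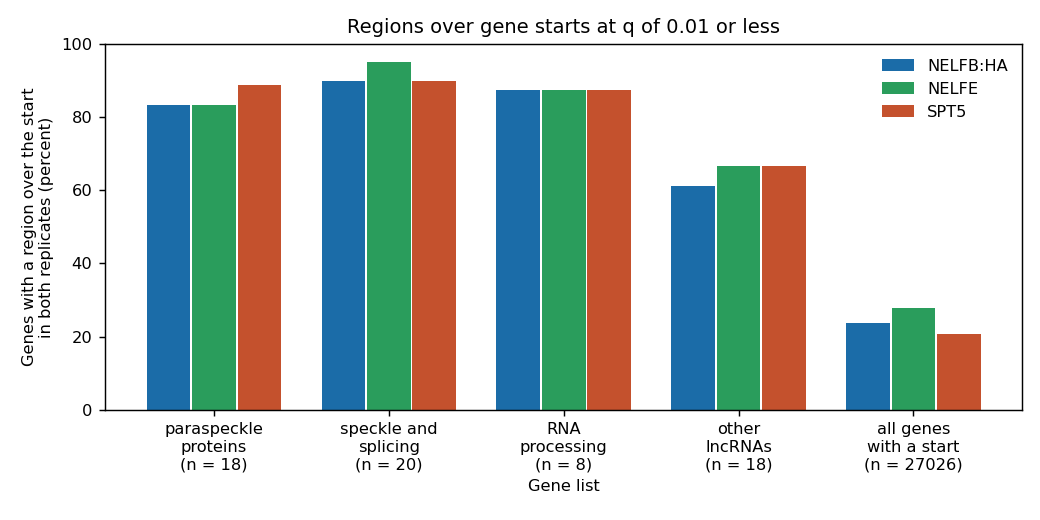
Percent of the genes in each list with a region at a q-value of 0.01 or less over the start in both replicates, by antibody, beside all 27026 genes with a known start, with the number of genes under each list. The 4 lists lie between 61.1% and 95.0%, and all genes between 20.6% and 27.9%.

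Other long noncoding RNA genes gave a mixed picture. Of 18, 11 had replicated strong regions of NELFB:HA, 12 of NELFE and 12 of SPT5. In the 10 with all 3 the median SPT5 reach was 6612 bp, against 2142 bp for NELFB:HA and 1880 bp for NELFE, and in 7 of the 10 both SPT5 libraries reached beyond all NELF libraries, against 24.7% of the 5050. Tug1 (12984 and 13450 bp) and Gas5 (12536 and 11083 bp) had the highest mean SPT5 reach, and Snhg3 had 9535 and 9538 bp. Tug1, Gas5 and Snhg3 are 9030, 3939 and 1754 bp long, so these SPT5 regions passed the end of the gene in both libraries. Gas5 and Snhg3 host small nucleolar RNAs in their introns. The imprinted genes Snhg14 and Meg3 had no region over the outermost annotated start in any library, with the same doubt about the start.

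Genes beside Neat1 and Malat1 were counted in the same way. Of 12 genes within 100 kb with a known start, 5 had replicated strong NELFB:HA regions, 7 NELFE and 3 SPT5, against 23.8%, 27.9% and 20.6% over all genes, so the SPT5 count was near that background. The 3 with SPT5, Tigd3, Dpf2 and Gm42067, had a median SPT5 reach of 607 bp, and in none of them did both SPT5 libraries reach beyond all NELF libraries. Frmd8, whose 3′ end faces Neat1, had replicated strong regions of both NELF subunits at its own start, and its SPT5 regions reached 588 and 322 bp from there. Map3k11 likewise had both NELF subunits, and Znrd2 and Pola2 had NELFE alone. At Znrd2 the SPT5 regions over the start, not both strong, reached 7673 and 3523 bp. Kcnk7, Ehbp1l1, Ltbp3, Slc25a45 and Cdc42ep2 had no replicated strong region over the start with any antibody.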

How the data were processed

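Peak lists of 6 control ChIP-seq libraries were used, grouped by antibody and replicate number from the sample titles. The headers number some replicates otherwise. Per the file headers, the authors called broad regions with MACS 2.1.1.20160309 on each library against an input, without pooling, at p cutoffs of 0.01 (strong) and 0.1 (weak), with 1 tag kept per position. The submitters' processing notes name Bowtie2, deepTools, MACS2 and mm10. The deposited pileup signal is the ChIP coverage after scaling to the smaller of ChIP and input, and the deposited fold is the ratio to local input. These and the deposited −log10 p and −log10 q are 1 value each for a whole region. The headers say q is not calculated, yet the column holds values, and these were used.

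Reach is the distance from the outermost annotated start (RefSeq, GRCm38.p6) to the edge of the single region over it. Strand came from the promoter table, and for Neat1 from general knowledge. The edge is where the weak cutoff ends, so it depends on depth and input. Levels are means ± SD of 2 libraries, and differences are set against the pooled SD. Functions were checked on simulated regions. Analysis used Python 3.11.15 and pandas 2.3.3. Genes named besides Neat1 and Malat1 were the 5 nearest in reach, the 3 of each list with the highest mean SPT5 reach, list members with no region, and genes within 100 kb. The members and lists were chosen with earlier results of these data known. Alternatives were a q-value limit, joined gaps, the farthest strong region, a fold limit, other ranks, a start tolerance of 500 bp and leaving out replicates.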

Additional observations from a re-analysis of the deposited data

How the results depend on the processing

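Of 36 alternatives for the 6 differences in downstream reach, 27 moved a difference by less than its pooled SD. Most of those 27 say little about stability. The q-value limit, the farthest strong region and differences taken by replicate number left all 6 values exactly as they were. Limiting regions to a q-value of 0.01 or less moved none, since every region over a start passed it. Joining regions over gaps of 1 kb or less moved SPT5 minus NELFE at Neat1 from 8291 to 11787.5 bp and SPT5 minus NELFB:HA there from 6861 to 10357.5 bp, and ended the overlap of SPT5 with NELF in reach at Neat1. The shortest NELF gap there, 1059 bp, was just above this limit. Leaving out 1 replicate number gave −836 to 14557 bp for SPT5 minus NELFB:HA at Neat1, −5492 to 8352 bp for NELFB:HA minus NELFE at Neat1, 6049 to 8656 bp for SPT5 minus NELFB:HA at Malat1 and −328 to 2626 bp for NELFB:HA minus NELFE at Malat1. Direction was thus reversed without replicate 2 in 2 of these and without replicate 1 in 1, each involving NELFB:HA, and the cause was not tested. Libraries of different antibodies were left out together by number, and whether the numbers pair them is not known. These values therefore show the spread between libraries and cannot give the effect of a shared replicate. SPT5 minus NELFE kept its direction at both genes.

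With the replicate block, means are the same by construction. For SPT5 minus NELFE the SD of same-numbered differences was 245 bp at Malat1 (mean 8502 bp) and 1095 bp at Neat1 (mean 8291 bp). For SPT5 minus NELFB:HA it was 1843 bp (mean 7353 bp) and 10885 bp (mean 6861 bp), and for NELFB:HA minus NELFE 2089 bp (mean 1149 bp) and 9789 bp (mean 1430 bp). Whether the replicate numbers pair the libraries is not known. Over 5050 genes, the change in reach between replicates correlated between antibodies at −0.0105 to 0.00381. Edges of regions depend on depth and input, so this cannot tell whether libraries of the same number shared a culture.

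The share of a gene under any region depends on weak calls. With strong regions alone it was 17.6% rather than 61.5% for NELFE at Malat1, 32.3% rather than 64.7% for NELFB:HA at Neat1 and 65.4% rather than 87.0% for SPT5 at Neat1. Edges of regions depend on depth, which differs up to 2.28-fold between libraries.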
